A study of Mus musculus with 4 samples.

Results

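The genes described here are 6 markers and regulators of the intestinal epithelium, chosen by gene symbol from the 45777 genes of the deposited tables: the homeobox genes Cdx1, Cdx2 and Isx, the nuclear receptor genes Hnf4a and Hnf4g, and the villin gene Vil1. They were followed in RNA sequencing of 4 mouse gastric organoid libraries, organoids being stomach epithelial cells grown as small structures in culture. The 2 Smad4 Knockout libraries come from the lines CPS1 and CPS4, which lack Cdh1, Trp53 and Smad4, and the 2 Control libraries come from the lines CPE and CPG, which lack Cdh1 and Trp53. All 4 lines therefore share the loss of E-cadherin (Cdh1) and p53 (Trp53), and no line with these genes intact was analysed here. All were kept for 2 days without serum or L-WRN conditioned medium, in B27 and N2, before RNA was taken. Each library is 1 named line, and the labels do not tell whether the lines come from separate animals or clones, so p-values measure only the spread between these 4 libraries. The study asks what the loss of Smad4, the partner protein of TGF-beta and BMP signalling, adds to the double knockout.

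CDX2 is the master regulator of the intestinal epithelium, and its appearance in stomach epithelium is a hallmark of intestinal metaplasia; CDX1 is its close relative. HNF4A and HNF4G are paralogous nuclear receptors that maintain the genes of absorptive enterocytes, and HNF4A is also present in liver, pancreas and stomach. ISX is a homeobox repressor of the intestine that limits vitamin A uptake, and villin bundles the actin filaments of microvilli in the brush border.

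The start regions of Isx and Cdx2, both higher in the 2 Smad4 Knockout libraries, and of Vil1, whose groups overlapped in CPM, are shown. For Hnf4g no RefSeq start window was available. Each window is taken from RefSeq on GRCm38.p6, 5′ to 3′ on the gene's own strand, from 250 bases before to 50 after the annotated start. Capitals mark CAAAG or its reverse complement CTTTG, the core of HNF4 binding sites. Isx lies at chr8:74872924-74873223 on the plus strand, Cdx2 at chr5:147307200-147307499 on the minus strand and Vil1 at chr1:74409134-74409433 on the plus strand.
Isx: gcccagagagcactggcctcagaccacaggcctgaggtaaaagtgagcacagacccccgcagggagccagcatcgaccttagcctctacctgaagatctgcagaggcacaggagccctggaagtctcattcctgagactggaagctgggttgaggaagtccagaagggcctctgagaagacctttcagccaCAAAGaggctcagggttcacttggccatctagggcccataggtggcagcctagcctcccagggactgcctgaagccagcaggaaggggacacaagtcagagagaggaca
Cdx2: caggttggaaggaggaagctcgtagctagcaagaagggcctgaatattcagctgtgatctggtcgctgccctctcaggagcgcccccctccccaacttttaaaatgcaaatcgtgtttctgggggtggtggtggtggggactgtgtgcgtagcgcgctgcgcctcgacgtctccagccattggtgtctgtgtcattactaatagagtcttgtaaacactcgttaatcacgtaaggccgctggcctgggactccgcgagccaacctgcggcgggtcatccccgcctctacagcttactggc
Vil1: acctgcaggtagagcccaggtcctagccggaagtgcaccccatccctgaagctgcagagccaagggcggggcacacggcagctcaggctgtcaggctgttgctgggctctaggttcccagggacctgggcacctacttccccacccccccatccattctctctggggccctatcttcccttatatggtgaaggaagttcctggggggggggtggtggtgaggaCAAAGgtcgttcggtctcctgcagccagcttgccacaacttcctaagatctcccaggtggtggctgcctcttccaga

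Start windows of Cdx2, Hnf4a (a pair), Isx and Vil1 were searched. The letters CAAAG or CTTTG stood once in the Isx window, 59 bases before the start, once in the Vil1 window, 27 bases before the start, and once in the upstream Hnf4a window, but not in the other Hnf4a window or in Cdx2. Of 32851 windows of this length over all genes, 53.9% hold them. The CDX core TTTAT or its reverse complement ATAAA was in none of these 5 windows, against 40.01% of all windows. The SMAD palindrome GTCTAGAC was in none of them either, against 0.213% of all windows. These are matches of letters and say nothing of binding.

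The total count was 85649781 and 96402585 in Smad4 Knockout 1 and 2, and 99845702 and 92334224 in Control 1 and 2. Smad4, as the check of the labels, was at 54.4 and 52.9 CPM (read counts scaled to library size) in the Smad4 Knockout libraries, against 94.5 and 103.3 CPM in Control, so its transcript was lower but present. Epithelial genes were abundant in all libraries, with Krt8, a simple epithelial keratin, at a mean of 3126 TPM (transcript abundance scaled to gene length and library size). Of the 19 gastric markers 13 were tested, with Anxa10, Cldn18 and Sox2 present in every library. No count in any library was found for 6, among them the parietal cell gene Atp4b, the chief cell genes Pgc and Cblif, and Barx1. Atp4a, another parietal cell gene of the list, was present, at 1.76 and 1.61 TPM in Smad4 Knockout, against 1.74 and 1.91 TPM in Control. Genes of fibroblasts, immune cells and endothelium summed to 0.291 to 5.19 TPM a list in the Smad4 Knockout libraries and to 0.655 to 4.68 TPM in Control, and enteroendocrine genes to at most 0.102 TPM; Lum, Pdgfrb, Cd3e, Cd79a, Chgb, Neurog3 and Neurod1 had no count. The squamous forestomach list summed to 19.03 and 24.5 TPM in Smad4 Knockout, against 18.4 and 18.5 TPM in Control, with Ivl the highest. The highest genes of the other lists were Pdgfra, Cd68, Kdr and Syp, at means of 0.287, 4.68, 1.08 and 0.0364 TPM over the 4 libraries. The mitochondrial share of counts was 0.949% and 1.48% in Smad4 Knockout 1 and 2, against 0.937% and 1.18% in Control 1 and 2, and ribosomal RNA took 0.243% and 0.562%, against 0.242% and 0.389%. Both shares were highest in Smad4 Knockout 2, and their part in the results was not tested.

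Isx, Hnf4g and Cdx2 were each higher in both Smad4 Knockout libraries than in both Control libraries, Hnf4a was level, and Vil1 was set by a low value in 1 Control library. Isx was about 4.75-fold higher, Hnf4g 2.49-fold and Cdx2 1.45-fold. Cdx1 was nearly silent, with reads in the Smad4 Knockout libraries only. No member passed edgeR's quasi-likelihood test after Benjamini-Hochberg adjustment over 18115 genes, a test that called 0% of all genes in either direction. At an unadjusted edgeR p under 0.05, 2 of the 5 tested members, Isx and Hnf4g, were higher, against 3.33% of all tested genes higher and 3.04% lower. DESeq2, the alternative test, called the same 2 genes higher and 0.539% of all genes higher. In CPM both Smad4 Knockout libraries lay above both Control libraries in 3 of the 5 tested members, against 18.2% of all tested genes. In none did they lie below, against 18.6%. In TPM, where no share of all genes was taken, the Smad4 Knockout values of Hnf4a and Vil1 were also above both Control values. The members were chosen with earlier results of these data known, so these shares are a description and not a test. In bulk RNA a difference in the number of cells that express a gene and a difference in RNA per cell cannot be told apart. The plot of TPM by library shows these levels.

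**Figure D1:**
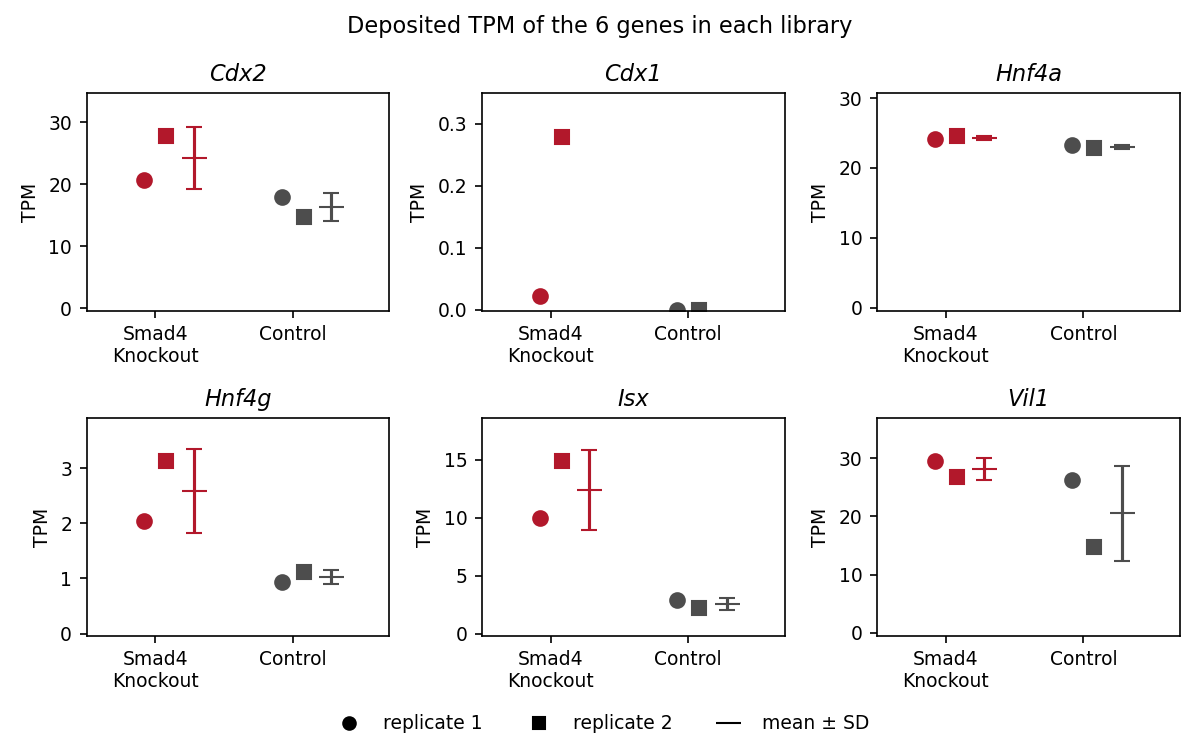
TPM of the 6 genes, with a linear axis of its own for each gene; circles and squares are libraries 1 and 2 of each group, and the bars are the mean ± SD (n = 2 each), left out for Cdx1. Isx at 9.98 and 14.9 TPM in Smad4 Knockout, against 2.94 and 2.2 TPM in Control, is the widest apart, Hnf4a lies between 22.8 and 24.5 TPM in all 4 libraries, and the Vil1 value of 14.8 TPM in Control 2 stands below the other libraries.

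Of the homeobox genes, Isx (gene ID 71597, chromosome 8, 74873174 to 74893506 in GRCm38) differed most. It had 905 and 1621 counts in Smad4 Knockout 1 and 2, against 329 and 219 counts in Control 1 and 2. That is 10.5 and 16.7 CPM, against 3.36 and 2.36 CPM, with group means of 13.6 ± 4.42 CPM in Smad4 Knockout and 2.86 ± 0.704 CPM in Control (SD, n = 2 each). The lowest Smad4 Knockout value was thus well above the highest Control value. The log2 fold change was 2.25 (SE 0.31), with an unadjusted edgeR p of 3.5e-04 and an adjusted p of 0.677. Only 6 of the 18115 genes had a smaller p. DESeq2 gave an adjusted p of 2.0e-08 for it, and edgeR gave an adjusted p of 0.0156 when Smad4 Knockout 1 was left out. With any other library left out, edgeR's adjusted p was between 0.752 and 0.918, and over all 4 libraries left out in turn the log2 fold change stayed between 1.89 and 2.55.

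Cdx2 (gene ID 12591, chromosome 5, 147300900 to 147307249) was already expressed in the Control organoids. It was at 20.7 and 27.7 TPM in Smad4 Knockout 1 and 2, against 17.9 and 14.7 TPM in Control 1 and 2. Smad4 Knockout 1 lay only a little above Control 1, at 25.9 against 24.7 CPM. The log2 fold change was 0.54 (SE 0.22), with an unadjusted edgeR p of 0.0514 and an adjusted p of 0.788. It was 0.26 without Smad4 Knockout 2, 0.36 without Control 2 and 0.77 without Smad4 Knockout 1, so its size rested on which library was kept.

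Cdx1 (gene ID 12590, chromosome 18, 61018862 to 61036199) had 3 and 30 counts in Smad4 Knockout 1 and 2, and 0 and 0 counts in Control 1 and 2. The exact 95% Poisson interval was 0.619 to 8.77 counts for the first of these and 20.2 to 42.8 counts for the second, covering counting error only. The same interval was 0 to 3.69 counts for each Control library, which holds the 3 counts of Smad4 Knockout 1 but not the 30 counts of Smad4 Knockout 2. The gene did not pass the filter on low counts. Without that filter edgeR gave it an adjusted p of 0.862, and DESeq2 gave 0.524. Its TPM was 0.109% and 1.01% of that of Cdx2 in the Smad4 Knockout libraries, so nearly all CDX transcript was Cdx2.

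Of the HNF4 receptors, Hnf4a (gene ID 15378, chromosome 2, 163506811 to 163572907) was the most even of the 6 genes. It was at 24.1 and 24.5 TPM in Smad4 Knockout, against 23.2 and 22.8 TPM in Control. On the CPM scale the groups overlapped, and the log2 fold change was 0.05 (SE 0.11, edgeR adjusted p = 0.995). The deposited row sums transcripts from both of its promoters, so their shares are not seen. The antisense RNA gene Hnf4aos overlaps it and had 7 and 0 counts in Smad4 Knockout and 15 and 0 counts in Control, too few to bear on the 5286 to 6445 counts of Hnf4a.

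Hnf4g (gene ID 30942, chromosome 3, 3508030 to 3659800), the more intestinal paralog, was at 2.05 and 3.12 TPM in Smad4 Knockout 1 and 2, against 0.935 and 1.11 TPM in Control 1 and 2. Every Smad4 Knockout value was above every Control value. Its log2 fold change stood at 1.32 (SE 0.30), with an unadjusted edgeR p of 0.00442 and an adjusted p of 0.677. DESeq2 gave an adjusted p of 0.0415. Leaving out Smad4 Knockout 2 gave 0.93, and leaving out Smad4 Knockout 1 gave 1.63.

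Vil1 (gene ID 22349, chromosome 1, 74409384 to 74435560), the structural gene among the 6, was at 53.8 and 52.6 CPM in Smad4 Knockout 1 and 2, against 52.8 and 27.7 CPM in Control 1 and 2. Both Smad4 Knockout libraries and Control 1 were level, and Control 2 alone was low in CPM, at a value 1.91-fold below Control 1. In TPM the values were 29.5 and 26.8 in Smad4 Knockout, against 26.3 and 14.8 in Control. The log2 fold change of 0.40 (SE 0.29, edgeR adjusted p = 0.885) was 0.01 without Control 2 and 0.95 without Control 1. The end of Vil1 overlaps that of Usp37 on the other strand by a short stretch, and Usp37 was at 52.6 to 57.3 CPM in all libraries.

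**Figure D2:**
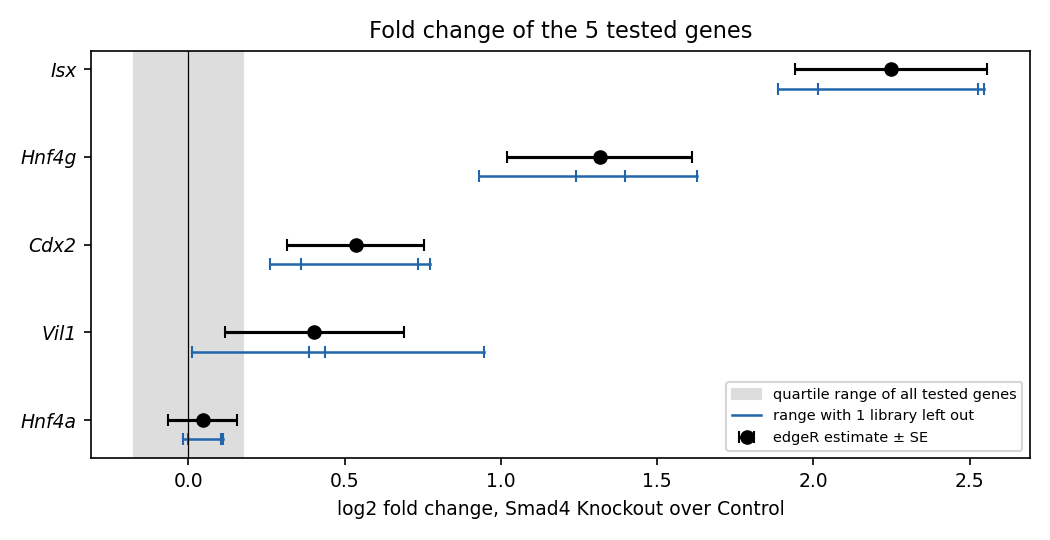
log2 fold change, Smad4 Knockout over Control, of the 5 tested genes: black points are the edgeR estimate with its SE, blue lines run over the estimates with 1 library left out, and the grey band holds the quartiles of all tested genes (-0.17 to 0.17). Isx stays between 1.89 and 2.55, while Vil1 runs between 0.01 and 0.95.

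Levels between genes were compared on the TPM scale, which takes account of length. In Smad4 Knockout the order of the means was Vil1 (28.2 TPM), Hnf4a (24.3 TPM), Cdx2 (24.2 TPM), Isx (12.4 TPM), Hnf4g (2.59 TPM) and Cdx1 (0.151 TPM). In Control it was Hnf4a (23.01 TPM), Vil1 (20.5 TPM), Cdx2 (16.3 TPM), Isx (2.57 TPM), Hnf4g (1.02 TPM) and Cdx1, listed at 0. Hnf4a and Cdx2 overlapped in Smad4 Knockout, as did Vil1 and Cdx2, and Vil1 overlapped both Hnf4a and Cdx2 in Control, so these neighbours did not differ beyond their spread. Isx was above Hnf4g, and Hnf4g above Cdx1, in every library.

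Ratios within a library do not depend on its depth or scaling. Isx was at 48.3% and 53.6% of the TPM of Cdx2 in Smad4 Knockout 1 and 2, against 16.4% and 14.9% in Control 1 and 2. Hnf4g was at 8.49% and 12.7% of the TPM of Hnf4a in Smad4 Knockout, against 4.02% and 4.89% in Control. In both pairs the Smad4 Knockout ratios lay above the Control ratios without overlap. With 2 libraries a group the exact two-sided permutation test of a single value cannot give a p below 0.333, and no other test of these ratios was made.

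**Figure D3:**
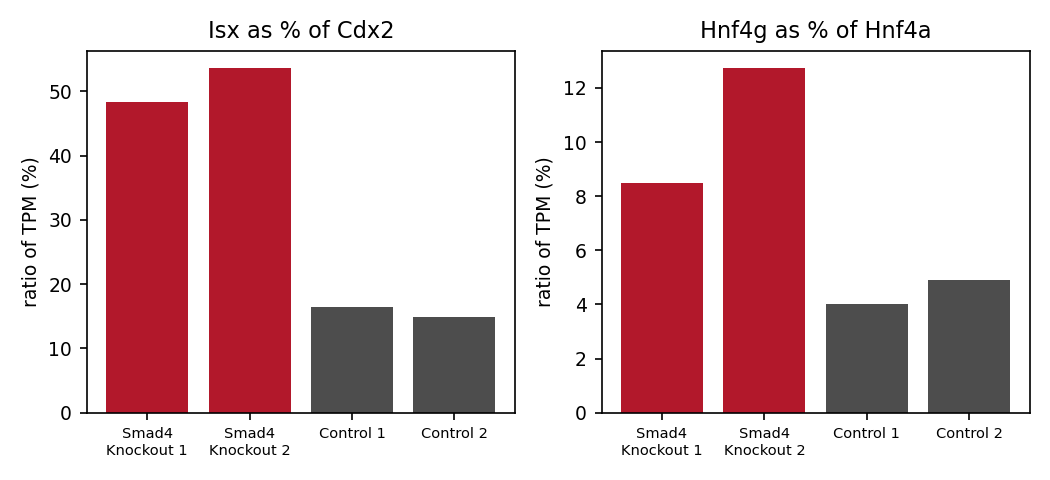
Isx as a percentage of Cdx2 (left) and Hnf4g as a percentage of Hnf4a (right), from the TPM of each library; each bar is 1 library. The Smad4 Knockout bars reach 48.3% and 53.6% for Isx, above the Control bars at 16.4% and 14.9%.

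The members that separated the groups were also uneven between the Smad4 Knockout libraries. Smad4 Knockout 2 was 1.6-fold above Smad4 Knockout 1 in Isx, 1.64-fold in Hnf4g and 1.44-fold in Cdx2 on the CPM scale, and Cdx1 was higher there as well. The ratio was 1.09 for Hnf4a and 0.977 for Vil1. Control 1 was above Control 2 in Isx (1.42-fold), Cdx2 (1.30-fold) and Vil1, and below it in Hnf4g (ratio 0.895).

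Genes with the most similar pattern were found by the root mean square distance between log2 CPM profiles over the 4 libraries, each centred on its mean, among 10094 genes (10095 for Hnf4g) averaging 5 CPM or more, predicted genes, pseudogenes and small noncoding RNAs aside. Closest to Isx were Ceacam1 (distance 0.15), Cdh17 (0.16) and Naip1 (0.22). Cdh17, the intestinal cadherin, was at 73.2 and 113 CPM in Smad4 Knockout, against 29.2 and 15.6 CPM in Control. Ceacam1, an adhesion molecule, was at 28.3 and 55.4 CPM in Smad4 Knockout, against 9.33 and 8.12 CPM in Control. Ceacam1 and Naip1 have near-identical relatives, which makes these values uncertain. Closest to Hnf4g were Tent5a (0.06), Fut9 (0.09), a fucosyltransferase, and Upk3bl (0.12), and closest to Cdx2 were Pglyrp1 (0.02), a peptidoglycan recognition protein, Dgka (0.02) and Zfp456 (0.03). The closest to Vil1 was Ggct (0.08), followed by Duoxa2 (0.11) and Slco1a5 (0.12), and the closest to Hnf4a were Yae1d1, Tra2b and Pwp1 (0.01 each). Within a distance of 0.1 there were 0 genes for Isx, 1 for Vil1, 2 for Hnf4g, 39 for Cdx2 and 3742 for the flat profile of Hnf4a. With 4 libraries likeness of this kind is a description only.

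Other regulators of the intestinal and foregut epithelium were taken as a list of 27 genes, of which 23 were tested. Of these, 15 had a log2 fold change above 0 and 8 below, with a median of 0.08, where 49.5% of all tested genes were above 0 and the median of all was 0.00. None was called by edgeR, and DESeq2 called Maf, against 0.539% of all genes called higher. In 5 genes both Smad4 Knockout libraries lay above both Control libraries and in 2 below, against 18.2% and 18.6% of all tested genes. At an unadjusted edgeR p under 0.05, 4 were higher and 1 lower, against 3.33% and 3.04% of all tested genes. Maf, a factor of the mature villus, was at 1.03 and 5.03 CPM in Smad4 Knockout, against 0.316 and 0.55 CPM in Control (log2 fold change 2.81, SE 0.79), with most of the difference in Smad4 Knockout 2. Elf3, an epithelial ETS factor and the highest of the list in TPM, was at 88.8 and 119.9 CPM, against 72.7 and 74.1 CPM in Control (0.51, SE 0.16). Pdx1, a factor of antrum and duodenum, was at 8.57 and 24.2 CPM in Smad4 Knockout, against 7.34 and 3.91 CPM in Control (1.54, SE 0.53). Prdm1, a repressor active in the immature gut, was at 1.18 and 0.681 CPM in Smad4 Knockout, against 0.174 and 0.356 CPM in Control (1.81, SE 0.63). Cdx4 and Nr5a2 had no count in any library. The median of the list was -0.02 without Control 1 and 0.28 without Control 2.

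Beside Vil1, 16 of 17 further brush border genes were tested. Of these 16, 15 had a log2 fold change above 0 (median 0.22), against 49.5% of all tested genes. None was called by edgeR. At an unadjusted edgeR p under 0.05, 2 were higher and 0 lower, against 3.33% and 3.04% of all tested genes. In 6 genes both Smad4 Knockout libraries lay above both Control libraries, and in 1, Ezr, below, against 18.2% and 18.6% of all tested genes. DESeq2 called 1 gene, Cdhr5, against 0.539% of all genes called higher. Cdhr5, a cadherin that links microvilli, was at 4.65 and 10.3 CPM in Smad4 Knockout, against 2.40 and 1.54 CPM in Control (log2 fold change 1.93, SE 0.44). Myo1a, the brush border myosin, was at 2.52 and 5.52 CPM in Smad4 Knockout, against 1.10 and 1.44 CPM in Control (1.66, SE 0.43). Calml4, a light chain of the brush border adhesion complex, was at 4.13 and 10.9 CPM, against 4.29 and 2.57 CPM in Control, where the groups overlapped. Eps8, an actin capping protein, stood at a log2 fold change of 0.30 (SE 0.15), while Ezr, ezrin, the most abundant of the list, was the gene below 0, at -0.12 (SE 0.09). Ush1c had no count in any library. The list median was between 0.14 and 0.34 with 1 library left out.

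The other members of the villin and gelsolin family all had a log2 fold change below 0, 7 of 7, with a median of -0.18. Of all tested genes 49.5% were above 0, and their lower quartile was -0.17. Only 1 of the 7, Scin, had both Smad4 Knockout libraries below both Control libraries, against 18.6% of all tested genes. None was called by edgeR or DESeq2. Scin, the actin-severing scinderin, was at 4.47 and 2.04 CPM in Smad4 Knockout, against 5.95 and 6.97 CPM in Control (-0.99, SE 0.38, unadjusted p = 0.0425 and adjusted p = 0.764 by edgeR's quasi-likelihood test). Gsn, gelsolin and the most abundant of them, was at 204.4 and 168.4 CPM in Smad4 Knockout, against 216.7 and 204.4 CPM in Control (-0.18, SE 0.13). Gsn, Capg (-0.29, SE 0.16) and Svil (-0.20, SE 0.15) overlapped between the groups, as did Avil, Vill and Flii. Without Smad4 Knockout 2 the median was -0.03, and without Control 1, 2 of the 7 were above 0.

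The genes of absorptive enterocytes, many of which HNF4 receptors and CDX2 are known to maintain, ranged from silent to abundant. Of 26, 16 were tested; Fabp1, Apoa4, Apoc3 and Sis had no count in any library. Of the tested genes 10 were above 0 and 6 below, with a median log2 fold change of 0.03, where 49.5% of all tested genes were above 0. At an unadjusted edgeR p under 0.05, 3 were higher and 0 lower, against 3.33% and 3.04% of all tested genes. These 3, Mgam, Cdh17 and Lgals4, were called higher by DESeq2, against 0.539% of all genes, and not by edgeR. Mgam, a brush border glucosidase, was at 5.64 and 5.63 CPM in Smad4 Knockout, against 2.06 and 1.69 CPM in Control (log2 fold change 1.58, SE 0.23). Dpp4, a brush border peptidase, had 72 and 69 counts in Smad4 Knockout, against 15 and 0 counts in Control. Lgals4, a galectin and the most abundant of the list in TPM, had a log2 fold change of 0.87 (SE 0.28). The list median was -0.11 without Control 2, 0.22 with DESeq2 and 0.23 in edgeR without the filter. Apob, the chylomicron apolipoprotein, named after its values were seen, was at 2489 and 1088 CPM in Smad4 Knockout, against 2218 and 3018 CPM in Control, which overlap.

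Genes of vitamin A handling were followed because in mouse intestine ISX is known to repress Scarb1, a lipid and carotenoid receptor, and Bco1, the enzyme that cleaves beta-carotene. Scarb1 was at 37.8 and 35.8 CPM in Smad4 Knockout, against 44.3 and 47.9 CPM in Control, a log2 fold change of -0.32 (SE 0.11, adjusted p = 0.718 by edgeR's quasi-likelihood test). Both Smad4 Knockout libraries were below both Control libraries. Bco1 had 10 and 26 counts in Smad4 Knockout, against 35 and 0 counts in Control, which overlap. Lrat, which esterifies retinol, had 0 and 0 counts in Smad4 Knockout, against 11 and 11 counts in Control. Bco2, a relative of Bco1 (0.36, SE 0.25), and Rbp2, the intestinal retinol carrier (0.39, SE 0.29), lay above 0 on the log2 scale. Over the 5 genes of this list 3 were above 0 and 2 below, with a median of 0.10 that was -0.27 without Smad4 Knockout 2.

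Goblet cell genes were all above 0, 9 of 9 tested out of 13, against 49.5% of all tested genes. Their median log2 fold change was 1.36. In 7 both Smad4 Knockout libraries lay above both Control libraries and in 0 below, against 18.2% and 18.6% of all tested genes. At an unadjusted edgeR p under 0.05, 6 were higher and 0 lower, against 3.33% and 3.04% of all tested genes. None was called by edgeR. DESeq2 called 3 higher, Tff3, Agr2 and Muc13, against 0.539% of all genes called higher. Agr2, a disulfide isomerase of mucous cells, was at 11.4 and 29.1 CPM in Smad4 Knockout, against 9.11 and 6.43 CPM in Control (1.39, SE 0.44). Muc13 (4.67, SE 0.58) and Tff3 (3.31, SE 0.76) had the largest values of the list, and Clca1 (1.36, SE 0.46) was its most abundant member. The list median was 0.63 without Smad4 Knockout 2 and 2.83 without Control 1. Muc2, the defining goblet mucin, had 0 and 245 counts in Smad4 Knockout, against 89 and 11 counts in Control, and so did not follow the groups.

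Gastric genes lay on both sides of 0. Of 13 tested, 8 were above 0 and 5 below, where 49.5% of all tested genes were above 0. The list median was 0.37, and 0.00 without Smad4 Knockout 2. In 4 genes both Smad4 Knockout libraries lay above both Control libraries and in 5 below, against 18.2% and 18.6% of all tested genes. At an unadjusted edgeR p under 0.05, 3 were higher and 2 lower, against 3.33% and 3.04% of all tested genes. Gkn1, a surface mucous cell protein, was at 5.87 and 20.0 CPM in Smad4 Knockout, against 2.95 and 2.54 CPM in Control (2.24, SE 0.56). Tff2 (0.99, SE 0.27) and Tff1 (1.19, SE 0.35), trefoil peptides of gastric mucus, also lay above both Control libraries. Ctse, gastric cathepsin E, was at 40.3 and 21.5 CPM in Smad4 Knockout, against 73.9 and 56.9 CPM in Control (-1.08, SE 0.30). These 4 genes were called by DESeq2, which called 133 of 18375 genes in either direction, and none by edgeR. Anxa10, the most abundant of the list in TPM, was at 171 and 176 CPM in Smad4 Knockout, against 188 and 158 CPM in Control. Sox2, the foregut factor that opposes CDX2 in development, was named after its values were seen. It was at 27.7 and 30.9 CPM in Smad4 Knockout, against 31.4 and 36.2 CPM in Control (-0.20, SE 0.13). Both Smad4 Knockout values of Sox2 were thus below both Control values. Transcripts of Sox2 and Cdx2 were both present in all 4 libraries, and bulk RNA does not show whether the same cells held them. Of 6 stem and Paneth cell genes 3 were tested, with a median log2 fold change of 1.83. Leaving out 1 library gave medians from 0.33 (Smad4 Knockout 2) to 2.57 (Smad4 Knockout 1), with 1.16 when Control 2 was left out. With low-count genes kept, 4 genes had a median of 0.87 in edgeR and 0.86 in DESeq2. The limma fits gave medians from 0.32 to 0.79. The stem cell genes Lgr5 and Ascl2 were at -0.13 (SE 0.47) and 2.30 (SE 0.60). Olfm4, whose value is the median of 1.83, was the highest in TPM and overlapped between the groups. It was at 4.20 and 21.1 CPM in Smad4 Knockout, against 5.69 and 1.41 CPM in Control.

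**Figure D4:**
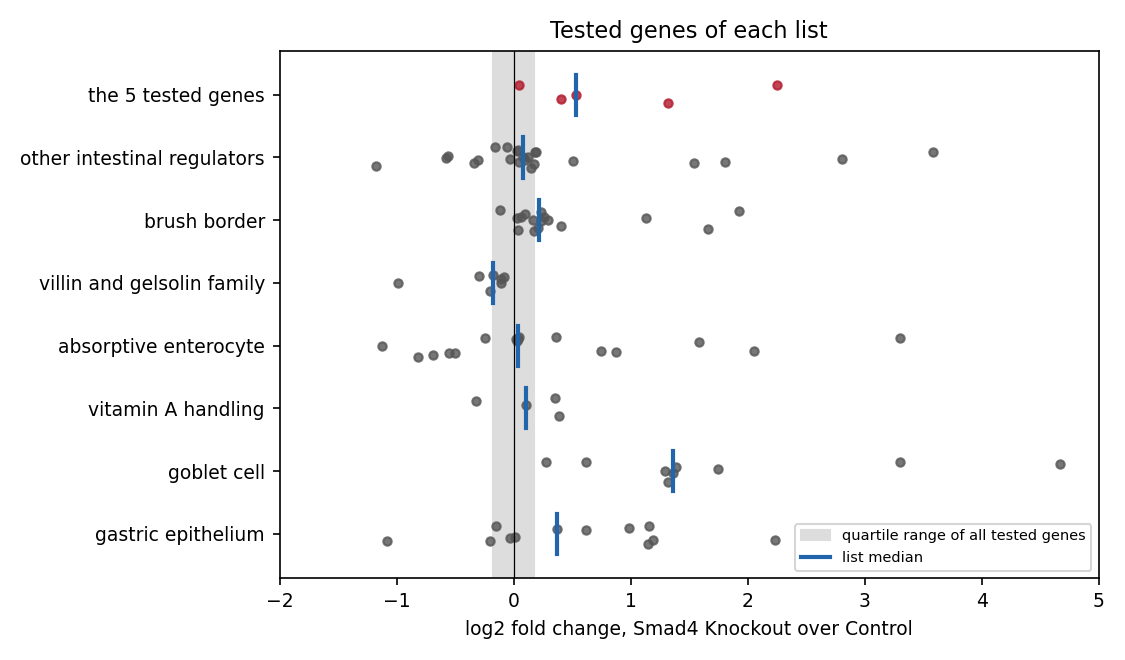
log2 fold change, Smad4 Knockout over Control, of the tested genes of each list, with the list median in blue and the quartiles of all tested genes in grey; each point is 1 gene, and Lrat and Muc6, with no count in Smad4 Knockout, are not drawn. The goblet cell median stands at 1.36 and that of the 5 tested genes at 0.54, while the absorptive enterocyte median is 0.03.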

How the data were processed

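Total RNA was sequenced from libraries made with a stranded Illumina TruSeq total RNA kit, per the labels' protocols. Tools listed in the submitters' processing notes are HISAT2 2.1.0, StringTie 2.1.3b, bcl2fastq 2.20.0 and Trimmomatic, with the build mm10. For the counting step and its strand setting: not given in the sources used here. In the deposited files each gene has a read count, treated as an estimated count, and a TPM value, per the file headers. The columns of Control 2 carry its title with an added 2. A further 5 value columns (FPKM) were not used. Members and lists were chosen with earlier results of these data known; the lists hold 164 entries in 14 lists.

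Counts were tested with edgeR 4.0.16 in R 4.3.3 (quasi-likelihood F-test, TMM, filterByExpr with a minimum count of 10), with a single genotype term; p-values of 18115 genes were adjusted by Benjamini-Hochberg, with a threshold of 0.05. CPM uses TMM-scaled library sizes, and SE is the log2 fold change over the square root of F. The coefficient of variation was 26.1%, so small differences cannot be detected with 2 libraries a group. Alternatives were DESeq2 1.42.0, RLE size factors, keeping genes with low counts, limma 3.58.1 with trend on log2(TPM + 1) or log2(TPM + 0.1) where 2 or more libraries reached 1 TPM, log2(TPM + 1) without that filter, and leaving out each library. The tests were tried on simulated counts with known changes.

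All 6 members are named. Replicates are numbered in accession order. Symbols turned into dates by a spreadsheet, 26 in all, were restored by gene ID. Of each list the text names the 4 tested genes with the smallest p and the one highest in TPM, or for lists of other cell types only the one highest in TPM; others were named after their values were seen. The values of 1 list gene are not reported here. Gene IDs matched the RefSeq annotation of GRCm38.p6 for 45679 of 45777 genes.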

Additional observations from a re-analysis of the deposited data

How the results depend on the processing

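No alternative changed the direction of Isx, Hnf4g, Cdx2 or Vil1 in any of the 10 fits per gene, and their log2 fold changes ran from 1.89 to 2.55, from 0.81 to 1.63, from 0.26 to 0.77 and from 0.01 to 0.95. Hnf4a changed sign without Smad4 Knockout 2 (-0.0016) and without Control 2 (-0.0151), and was between 0.05 and 0.11 in the other fits. Of the members, 2 were called by DESeq2 (Isx and Hnf4g), from 0 to 1 with 1 library left out (Isx, without Smad4 Knockout 1), and 0 with RLE size factors, with low-count genes kept or in any limma fit. Over all genes DESeq2 called 133, and edgeR called from 0 to 92 with 1 library left out: 92 without Smad4 Knockout 1, 1 without Control 1 and 0 without either of the others. In those fits the lone library of a group is assumed to vary like the other group. The cause of these differences was not tested. List medians were moved beyond their replicate spread most often by leaving out Control 2, in 6 lists. No paired analysis was possible because the labels give the groups no shared replicate numbers. Depth limits Cdx1, which had at most 30 counts in a library.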
